A study of Arabidopsis thaliana with 15 samples.

Results

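The genes described here are the nuclear 18S and 5.8S ribosomal RNA (rRNA) genes and the signal recognition particle RNA gene AT7SL-1 of Arabidopsis thaliana, 5 of the 37361 genes in the deposited counts. They were chosen by gene identifier: AT3G41768 and AT2G01010 for 18S rRNA, AT2G01020 and AT3G41979 for 5.8S rRNA, and AT4G02970 for AT7SL-1. The counts come from NAD-seq, in which RNA that starts with the cofactor NAD+ in place of an m7G cap is given a biotin through a click reaction and is captured on streptavidin. All 15 libraries were made from poly(A) RNA of whole Col-0 (wild-type) seedlings aged 12 days, and they fall into 5 groups of 3. The mock groups had RNA carried through the cap-depletion step with no antibody, and the m7G-depleted groups had RNA depleted with an antibody against the m7G cap. Mock RNA was sequenced directly (mRNA-seq), after capture by the copper-free click reaction (mock SPAAC) and after capture by the copper-catalysed reaction (mock CuAAC). Depleted RNA was sequenced after both captures (depleted SPAAC and depleted CuAAC). E. coli tRNA was added as carrier to the RNA for capture and not to that for mRNA-seq, and both kinds of library were made from fragmented RNA primed at random.

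18S rRNA is the RNA of the small ribosomal subunit and 5.8S rRNA is part of the large subunit. RNA polymerase I makes both, with 25S rRNA, as a single precursor that is cut and trimmed in the nucleolus. The 7SL RNA is made by RNA polymerase III and is the scaffold of the signal recognition particle, which binds ribosomes that are making secreted proteins and brings them to the endoplasmic reticulum. None of the 3 RNAs carries the m7G cap of a messenger RNA, and rRNA is by far the most abundant RNA of a plant cell, so some of it is usually left in poly(A) RNA.

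The reference annotation, TAIR10.1 from RefSeq, has 2 genes for each of these rRNAs. AT2G01010 (18S) lies at chr2:3706-5513 and AT2G01020 (5.8S) at chr2:5782-5945, close to the end of chromosome 2. AT3G41768 (18S) lies at chr3:14197677-14199484 and AT3G41979 (5.8S) at chr3:14199753-14199916. All 4 are single-exon rRNA genes on the plus strand; RefSeq names the product of AT2G01020 5S rRNA, while its note gives 5.8S. The 18S copies are each 1808 bases long and differ at 2 of them, T489C and T1327C, with the AT2G01010 base first and positions counted from the 5′ end of the gene. The bases around both differences are shown because they are the only places inside the gene where a read can tell the copies apart, with the differing base in capitals. The first pair covers chr2:4169-4219 and chr3:14198140-14198190, and the second pair chr2:5007-5057 and chr3:14198978-14199028, all on the plus strand.
AT2G01010 around base 489: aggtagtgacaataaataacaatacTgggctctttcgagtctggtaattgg
AT3G41768 around base 489: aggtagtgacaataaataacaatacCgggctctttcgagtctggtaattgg
AT2G01010 around base 1327: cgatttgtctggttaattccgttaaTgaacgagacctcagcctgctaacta
AT3G41768 around base 1327: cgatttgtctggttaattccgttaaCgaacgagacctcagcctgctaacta

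The 5.8S copies are identical over all 164 bases, and their shared sequence is given once, with no capitals, because no read that lies inside the gene can be assigned to either copy.
5.8S of AT2G01020 and AT3G41979: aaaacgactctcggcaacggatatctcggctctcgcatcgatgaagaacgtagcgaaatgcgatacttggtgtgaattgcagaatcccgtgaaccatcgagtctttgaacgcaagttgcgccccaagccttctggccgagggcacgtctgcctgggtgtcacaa
Of the 1759 stretches of 50 bases inside each 18S copy, 100 occur only once in the genome, and of the 1659 stretches of 150 bases 300 do. Inside the 5.8S genes none of the 115 stretches of 50 bases does. Stretches that only overlap a 5.8S gene reach into sequence that differs, and 135 of 313 stretches of 150 bases that overlap it are found once. The sources used here do not say how reads that fit several places were counted. The split of counts between copies therefore rests on few positions. Summed counts of both copies do not depend on that split. If reads that fit both copies were left out, the sums lack them too.

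AT4G02970 lies at chr4:1317499-1319179 on the plus strand, and it is named 7SL RNA1 in RefSeq but is annotated there as protein-coding. Its 2 exons cover chr4:1317499-1318200 (702 bases) and chr4:1319069-1319179 (111 bases), 813 bases in all. The position of the 7SL RNA within the gene is not annotated, so its counts are those of both exons and cannot be limited to the RNA itself. Past the end of exon 2, at chr4:1319241-1319250, the minus strand holds TCCCACATCG, the letters of an element known upstream of plant snRNA and 7SL genes. Cut into consecutive windows of 300 bases, the 5 nuclear chromosomes hold these letters on either strand in 309 of 397152 windows (0.0778%). The stretch from these letters through exon 2 is shown on the minus strand, chr4:1319069-1319250, because the sequence search described further on starts from it; capitals mark the element.
AT4G02970, element to exon 2, minus strand: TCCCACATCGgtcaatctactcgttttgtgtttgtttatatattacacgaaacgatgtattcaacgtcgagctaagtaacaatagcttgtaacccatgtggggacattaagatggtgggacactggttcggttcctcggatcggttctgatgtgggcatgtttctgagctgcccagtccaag

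Library totals ran from 3806556 to 9097552 counts in mRNA-seq and from 6242770 to 19798778 in the captured groups, with the depleted CuAAC libraries (6242770 to 7056230) the shallowest of these. Whether replicates were grown or extracted separately is not in the labels, so p-values measure the spread among these libraries and may reflect technical variation alone. In bulk RNA, fewer cells of a type and less RNA per cell cannot be told apart. The seedling markers were present in every library: the shoot gene RBCS1A had 5760 to 11255 counts for every 1e6 of the library total, CAB1 18702 to 41304 and CAB3 1401 to 6533, while the root genes PYK10 had 796 to 2327, TIP2;2 87.7 to 269 and CASP1 1.92 to 15.6. CAB3 (AT1G29910), which has near-identical relatives, was lower than in mRNA-seq in all 4 captured groups, with log2 fold changes from -2.57 to -1.96, and RBCS1A was called lower in depleted SPAAC (-1.17). Of the 3 root genes CASP1 was lower in all 4, with -3.10 to -1.13, while PYK10 had -0.19 to 0.65 and TIP2;2 -0.70 to 0.84, short of a fold of 2 in each. In mock SPAAC, mock CuAAC, depleted SPAAC and depleted CuAAC the medians were -0.67, -0.54, -1.17 and -0.52 for the 3 shoot genes and 0.06, 0.34, -0.70 and -0.19 for the 3 root genes. The part of these shifts in the results was not tested. Counting did not use strand: AT2G08665 and AT2G34420, which lie on opposite strands, had identical counts in 15 of 15 libraries.

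The 18S gene AT3G41768 held most of the rRNA counts, and it was highest in mRNA-seq, followed by depleted CuAAC, depleted SPAAC, mock CuAAC and mock SPAAC. Levels are given by replicate as CPM, counts relative to a library size that the TMM method of edgeR scales between libraries. The mRNA-seq values of AT3G41768 were 423960, 270050 and 463940 CPM (385983 ± 102369, SD, n = 3). In mock SPAAC it had 2726.8, 2705.2 and 3063.2 CPM (2832 ± 201), and in mock CuAAC 5798.5, 5315.2 and 5375.8 CPM (5496 ± 263). In depleted SPAAC the values were 12570, 10750 and 10802 CPM (11374 ± 1036), and in depleted CuAAC 32950, 31860 and 29430 CPM (31413.5 ± 1802). No library of any group overlapped those of another group. The lowest mRNA-seq library was the shallowest of all, with 778402 counts on this gene, and the captured libraries held 58670 to 240822.

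As a share of a library, the 4 rRNA genes together took 26.3 ± 5.08% of mRNA-seq counts (20.49 to 29.99%). They took 0.321 ± 0.0284% in mock SPAAC, 0.576 ± 0.0304% in mock CuAAC, 1.32 ± 0.138% in depleted SPAAC and 3.35 ± 0.186% in depleted CuAAC (SD, n = 3 each). Nuclear protein-coding genes made up the larger part of every library, with 60.4 ± 4.25% of counts in mRNA-seq and means of 96.3, 95.6, 94.9 and 91.4% in the captured groups in the same order. Library totals include the rRNA counts, so fold changes are given with TMM scaling and also checked with library totals.

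The second 18S copy, AT2G01010, was counted far less often than AT3G41768, and its groups stood in a different order. In mRNA-seq it had 309.4, 137.4 and 283.1 CPM (243 ± 92.7), and in depleted CuAAC 82.64, 90.00 and 97.78 CPM (90.1 ± 7.57). Mock CuAAC followed with 16.32, 13.92 and 12.64 CPM (14.3 ± 1.87), above depleted SPAAC with 12.16, 11.68 and 9.563 CPM (11.1 ± 1.38). The lowest were those of mock SPAAC with 1.534, 2.796 and 2.082 CPM (2.14 ± 0.633). Neighbouring groups in this order did not overlap, but mock CuAAC and depleted SPAAC came close, with 12.64 CPM as the lowest value of the former and 12.16 CPM as the highest of the latter. The 6 SPAAC libraries rest on 33 to 214 counts each.

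Of the 5.8S genes, AT3G41979 on chromosome 3 was counted more often than AT2G01020 on chromosome 2, and both kept the order of groups of AT3G41768. AT3G41979 had 413.4, 331.3 and 407.0 CPM in mRNA-seq (384 ± 45.7). Captured mock RNA gave 3.114, 3.942 and 3.747 CPM with SPAAC (3.601 ± 0.433) and 6.255, 6.809 and 4.839 CPM with CuAAC (5.97 ± 1.02). After m7G depletion it had 19.38, 17.41 and 12.85 CPM in SPAAC (16.5 ± 3.35) and 24.77, 45.46 and 28.62 CPM in CuAAC (32.9 ± 11.0). No libraries of different groups overlapped, and replicate 2 stood above the other two in depleted CuAAC. AT2G01020 had 53.82, 53.08 and 58.76 CPM in mRNA-seq (55.2 ± 3.09). Captured mock RNA gave 0.8366, 0.5501 and 0.9367 CPM with SPAAC (0.774 ± 0.201) and 1.548, 1.687 and 1.972 CPM with CuAAC (1.74 ± 0.216). It had 4.263, 3.806 and 2.716 CPM in depleted SPAAC (3.59 ± 0.795) and 7.936, 14.23 and 6.625 CPM in depleted CuAAC (9.60 ± 4.07), again without overlap and with replicate 2 highest in the last group. The captured libraries held 12 to 93 counts of this copy.

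AT4G02970 was present in mRNA-seq at 154.1, 179.7 and 172.7 CPM (169 ± 13.3), the smallest relative spread among the replicates of that group after AT2G01020, and was nearly gone from the captured mock libraries. Its values were 1.255, 0.9627 and 0.8847 CPM in mock SPAAC (1.03 ± 0.195) and 0.5159, 0.6025 and 0.3585 CPM in mock CuAAC (0.492 ± 0.124), the latter from 8, 10 and 4 counts. Depleted SPAAC had 6.366, 2.322 and 1.358 CPM (3.35 ± 2.66) and depleted CuAAC 4.515, 5.510 and 6.360 CPM (5.46 ± 0.923). Those last 2 groups overlap, because replicate 1 of depleted SPAAC held 112 counts where replicates 2 and 3 held 36 and 24; the other groups do not. Unlike the 4 rRNA genes, AT4G02970 had its lowest mean in mock CuAAC, but its difference between the mock captures was not called in the test given below. Per kilobase of exon, mean mRNA-seq levels were 213486 CPM for AT3G41768, 2341 CPM for AT3G41979 and 337 CPM for AT2G01020. They were 208 CPM for AT4G02970 and 135 CPM for AT2G01010. These values cannot be compared as RNA amounts, because the genes differ in how much of their sequence is found once in the genome. Of stretches of 150 bases inside the gene, 300 of 1659 are found once for AT3G41768 and for AT2G01010. For AT2G01020 and AT3G41979 0 of 15 are, and for exon 1 of AT4G02970 553 of 553.

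**Figure D1:**
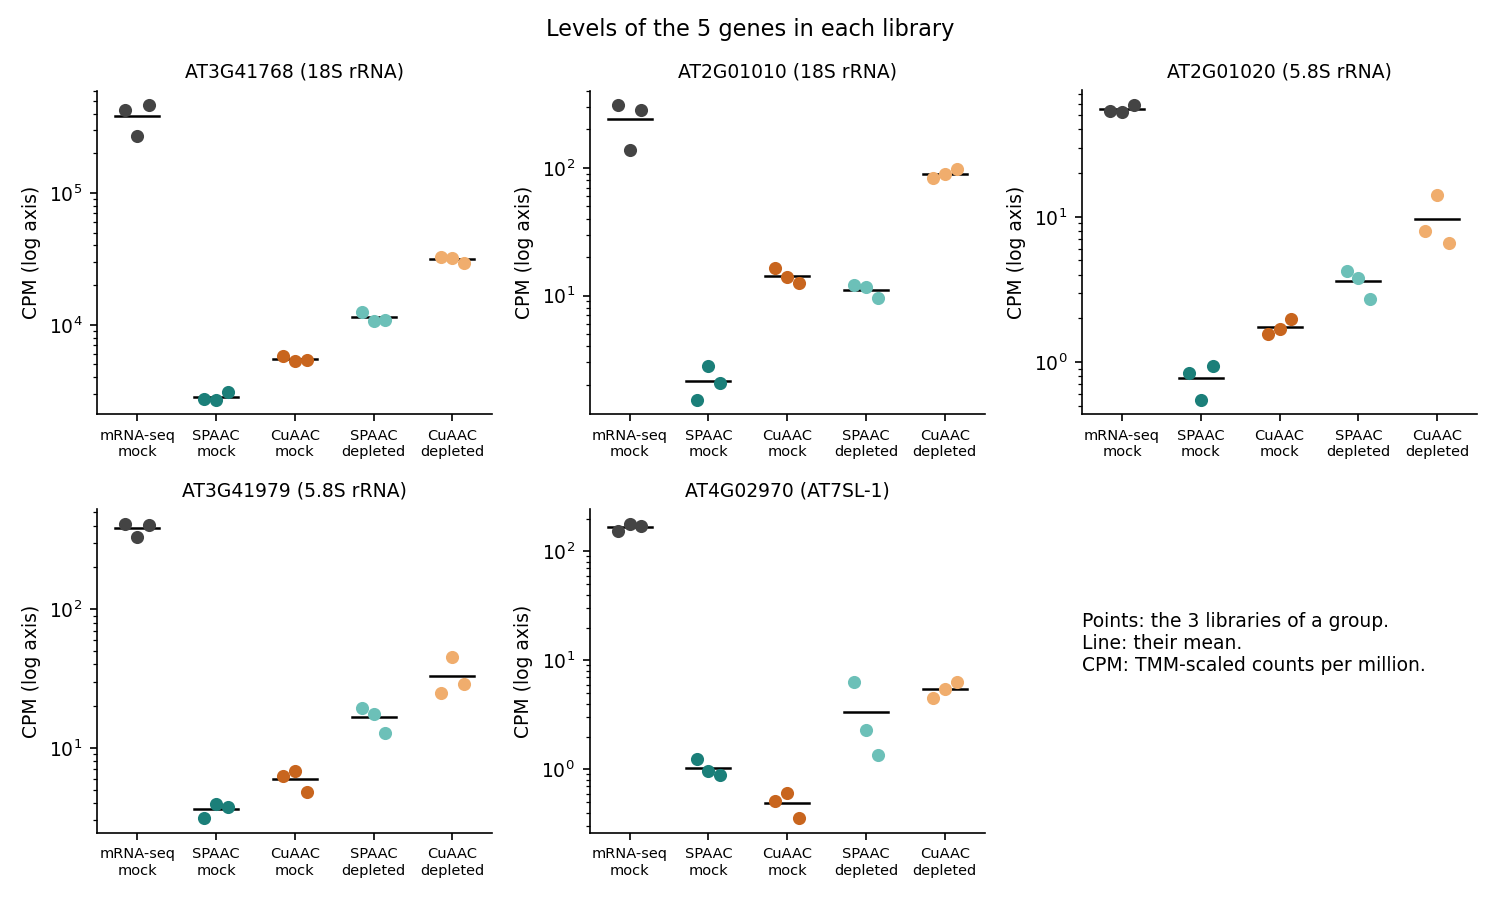
TMM-scaled CPM (log axis) of the 5 genes in each of the 15 libraries; points are libraries, lines are means of 3. All 5 genes are highest in mRNA-seq, the 4 rRNA genes are lowest in mock SPAAC, and AT4G02970 is lowest in mock CuAAC, at 0.3585 to 0.6025 CPM. The difference of AT4G02970 between the mock captures was not called.

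Mock SPAAC against mRNA-seq asked what the copper-free capture retains, and all 5 genes were lower. A gene is called here when its edgeR quasi-likelihood adjusted p (Benjamini-Hochberg over 21456 genes tested) is under 0.05 and its fold change is at least 2. Of all genes tested, 5.17% were called lower and 1.9% higher in this comparison. The log2 fold change was -7.09 ± 0.19 (SE) for AT3G41768 (edgeR adjusted p = 8.44e-14), -6.83 ± 0.34 for AT2G01010, -6.15 ± 0.26 for AT2G01020, -6.74 ± 0.25 for AT3G41979 and -7.33 ± 0.41 for AT4G02970 (edgeR adjusted p = 5.92e-08). The median over all genes tested was 0.07.

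Mock CuAAC against mRNA-seq asked the same of the copper-catalysed capture, with 11.2% of genes tested called lower and 5.09% higher, and all 5 were again lower. The log2 fold changes were -6.13 ± 0.18 for AT3G41768, -4.09 ± 0.28 for AT2G01010, -5.00 ± 0.24 for AT2G01020, -5.99 ± 0.24 for AT3G41979 and -8.35 ± 0.46 for AT4G02970, with edgeR adjusted p between 2.56e-13 and 2.05e-07. AT4G02970, counted over both exons, was thus the most lowered of the 5 here, and AT2G01010, whose counts rest on few positions, the least lowered.

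The depleted captured libraries differ from mRNA-seq in capture and in cap depletion, since m7G-depleted mRNA-seq was not analysed here, and the effects of the steps cannot be told apart in these comparisons. In depleted SPAAC, where 13.8% of genes were called lower and 10.9% higher, all 5 were lower: AT3G41768 by -5.08 ± 0.17, AT2G01010 by -4.46 ± 0.29, AT2G01020 by -3.94 ± 0.22, AT3G41979 by -4.54 ± 0.22 and AT4G02970 by -5.64 ± 0.36 on the log2 scale (edgeR adjusted p 4.2e-13 to 6.23e-08). Without replicate 1 of depleted SPAAC the value for AT4G02970 was -6.53. In depleted CuAAC, where 12.6% were called lower and 5.39% higher, the values were -3.62 ± 0.16 for AT3G41768, -1.44 ± 0.25 for AT2G01010, -2.54 ± 0.21 for AT2G01020, -3.55 ± 0.21 for AT3G41979 and -4.94 ± 0.37 for AT4G02970, all called (edgeR adjusted p 2.62e-11 to 0.00053). The call for AT2G01010 did not hold with library totals in place of TMM (-0.79) or in a test against a fold of 2 (edgeR glmTreat adjusted p = 0.158). The 4 comparisons share the mRNA-seq libraries. Scaling by library totals moved the median of all genes to 0.800, 0.622, 0.821 and 0.612 in these comparisons, and the members' other calls held under it.

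SPAAC against CuAAC on the same RNA compared the click reactions. In mock RNA, where 0.508% of genes were called lower in SPAAC and 6.47% higher, 2 members were called, both lower in SPAAC. These were AT2G01010 with a log2 fold change of -2.74 ± 0.33 (edgeR adjusted p = 5.12e-05) and AT2G01020 with -1.15 ± 0.33 (edgeR adjusted p = 0.00965). The call for AT2G01020 ended without replicate 2 of mock SPAAC (-0.95) and in the test against a fold of 2. AT3G41768 had -0.96 ± 0.14 (edgeR adjusted p = 6.61e-05) and AT3G41979 -0.74 ± 0.26 (edgeR adjusted p = 0.0391), both short of a fold of 2. AT3G41768 passed it in 4 alternatives, at -1.02 to -1.01. AT4G02970 had +1.02 ± 0.73 (edgeR adjusted p = 0.309) and was not called.

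In m7G-depleted RNA 0.895% of genes were called lower in SPAAC and 7.3% higher, and 3 members were: AT3G41768 with -1.47 ± 0.15, AT2G01010 with -3.02 ± 0.28 and AT2G01020 with -1.40 ± 0.23 on the log2 scale (edgeR adjusted p 7.38e-07 to 6.45e-05). The call for AT2G01020 ended in the test against a fold of 2 (edgeR glmTreat adjusted p = 0.386). AT3G41979 had -0.99 ± 0.21 (edgeR adjusted p = 0.00217), just short of the fold threshold, and was called in 5 alternatives. AT4G02970 had -0.70 ± 0.44 (edgeR adjusted p = 0.245); without replicate 1 of depleted SPAAC it had -1.58 (edgeR adjusted p = 1.41e-05) and was called. In both RNAs AT2G01010 was the member with the largest difference between the reactions, but its counts rest on the few positions that differ between the 18S copies.

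All 5 genes were higher in depleted than in mock RNA in both captures. In SPAAC, where 7.37% of genes were called higher and 9.66% lower after depletion, the log2 fold changes over mock were 2.01 ± 0.15 for AT3G41768, 2.37 ± 0.33 for AT2G01010, 2.21 ± 0.29 for AT2G01020, 2.20 ± 0.24 for AT3G41979 and 1.69 ± 0.48 for AT4G02970 (edgeR adjusted p 9.76e-09 to 0.0107). The last call ended without replicate 1 of depleted SPAAC (0.80) and in the test against a fold of 2 (edgeR glmTreat adjusted p = 0.343). In CuAAC, where 6.32% of genes were called higher and 8.24% lower, the values were 2.51 ± 0.15 for AT3G41768, 2.65 ± 0.27 for AT2G01010, 2.46 ± 0.26 for AT2G01020, 2.44 ± 0.24 for AT3G41979 and 3.40 ± 0.62 for AT4G02970 (edgeR adjusted p 1.67e-09 to 0.000763). The 4 rRNA genes thus rose by log2 fold changes of 2.01 to 2.65 in all.

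Whether depletion acted differently in SPAAC and CuAAC was tested as the difference between both effects, in which 0.00466% of all genes were called. No member was called by edgeR or by DESeq2, and 1 had an unadjusted edgeR p under 0.05, AT3G41768 with -0.51 ± 0.20. The others were -0.28 ± 0.44 for AT2G01010, -0.25 ± 0.42 for AT2G01020, -0.24 ± 0.34 for AT3G41979 and -1.71 ± 0.84 for AT4G02970. Without replicate 1 of depleted SPAAC the difference for AT4G02970 was -2.60 (edgeR adjusted p = 0.0113) and was called. With SE from 0.20 to 0.84, these values do not show that depletion acted alike in both captures.

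**Figure D2:**
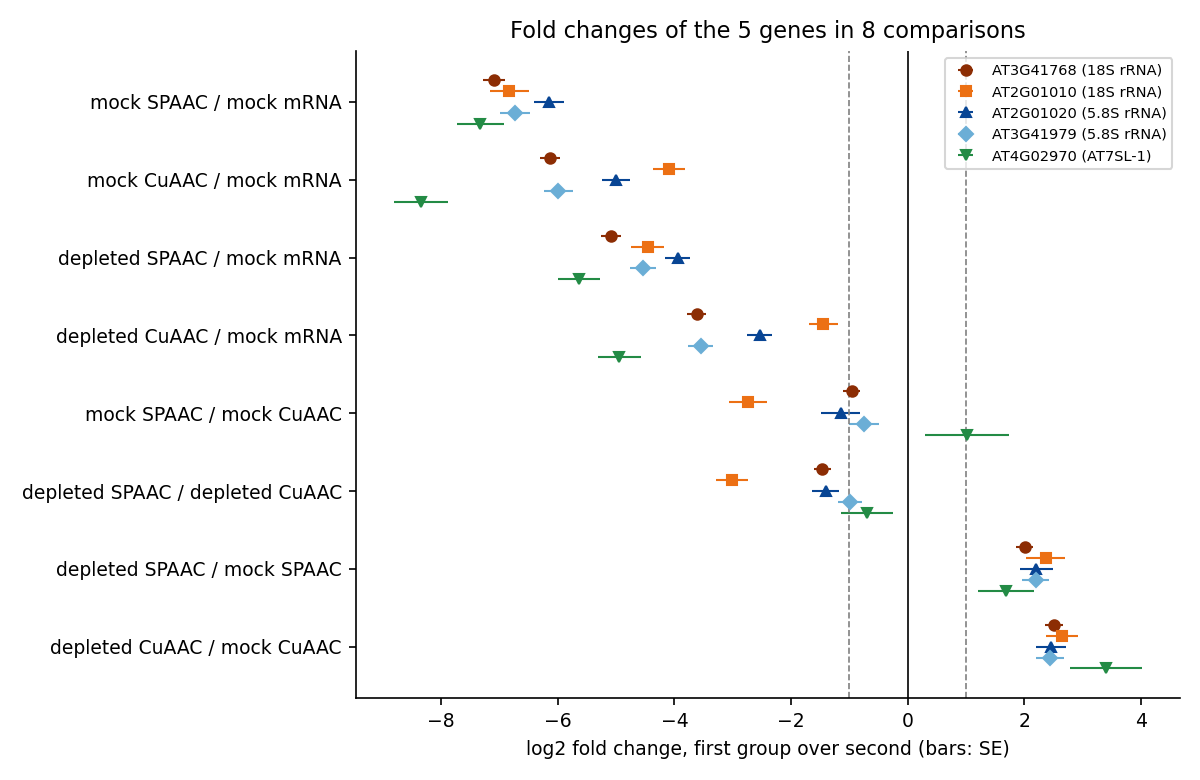
Log2 fold changes (first group over second, bars are SE) of the 5 genes in 8 comparisons; dashed lines mark a fold of 2. All points lie left of -1 in the 4 comparisons with mRNA-seq and right of 1 in the 2 comparisons of depleted with mock RNA, while those of SPAAC with CuAAC lie between -3.02 and 1.02.

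The share of 18S counts that fell on AT2G01010 does not depend on scaling between libraries, and it was higher in the CuAAC libraries. In mRNA-seq it was 0.0729, 0.0508 and 0.0610% (0.0616 ± 0.0111%, SD, n = 3), and in mock SPAAC 0.0562, 0.103 and 0.0679% (0.0758 ± 0.0245%). In mock CuAAC it was 0.281, 0.261 and 0.235% (0.259 ± 0.0231%). Depleted SPAAC had 0.0967, 0.108 and 0.0884% (0.0979 ± 0.0101%) and depleted CuAAC 0.250, 0.282 and 0.331% (0.288 ± 0.0408%). Every CuAAC library lay above every SPAAC and mRNA-seq library. The counting error is smaller than this gap. Mock SPAAC replicate 2 had 61 of 59074 18S counts on AT2G01010, with a 95% Wilson interval of 0.0804 to 0.133%. No library outside CuAAC had a higher upper limit. Mock CuAAC replicate 3 had 141 of 60127, with an interval of 0.199 to 0.276%, the lowest lower limit in CuAAC. Such intervals cover counting error only. The copies differ at 2 bases, and whether base errors in reads of AT3G41768 were counted as AT2G01010 was not tested.

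With 3 against 3 libraries a two-sided exact permutation test cannot go below p = 0.1, and it gave 0.1 for the difference of both CuAAC groups and of depleted SPAAC from mRNA-seq and for SPAAC against CuAAC in each RNA (adjusted p = 0.218 over 24 tests of ratios). Mock SPAAC did not differ from mRNA-seq beyond its spread (exact permutation p = 0.5), nor did depleted from mock in SPAAC (p = 0.3) or in CuAAC (p = 0.4). Over both RNAs the share was 0.186 percentage points higher in CuAAC, and all 6 CuAAC libraries lay above all SPAAC libraries of the same RNA. With each captured library left out in turn the difference was 0.176 to 0.196 points. These values over both RNAs, and those of the ratios that follow, were computed after the pattern was seen and carry no test.

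The same quantity was computed for the 5.8S copies, whose genes are identical. AT2G01020 took 12.6 ± 1.15% of 5.8S counts in mRNA-seq, 17.8 ± 4.85% in mock SPAAC, 22.9 ± 5.25% in mock CuAAC, 17.8 ± 0.308% in depleted SPAAC and 22.3 ± 3.04% in depleted CuAAC (SD, n = 3). CuAAC was 4.79 points above SPAAC over both RNAs, in 4 of 6 libraries above all SPAAC libraries of the same RNA.

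The ratio of 5.8S to 18S counts, with both copies summed and divided by gene length, was low and close in all groups. This ratio cannot be read as one of RNA amounts. Inside the gene 0 of 115 stretches of 50 bases occur once in the genome for 5.8S, and 100 of 1759 for 18S. It was 1.30 ± 0.242% in mRNA-seq, 1.70 ± 0.117% in mock SPAAC, 1.54 ± 0.190% in mock CuAAC, 1.94 ± 0.314% in depleted SPAAC and 1.49 ± 0.507% in depleted CuAAC (SD, n = 3). Mock SPAAC and depleted SPAAC did not overlap with mRNA-seq, at log2 differences of 0.41 and 0.59 (exact permutation p = 0.1, adjusted p = 0.218), and the other 6 pairs overlapped. Over both RNAs CuAAC was lower than SPAAC by a log2 ratio of -0.29, which ran from -0.42 to -0.19 with a library left out.

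The ratio of AT4G02970 to 18S counts, with both exons of AT4G02970 counted, changed more. It too cannot be read as a ratio of RNA amounts. The ratio per length was 0.104 ± 0.0382% in mRNA-seq, 0.0818 ± 0.0192% in mock SPAAC, 0.0199 ± 0.00518% in mock CuAAC, 0.0628 ± 0.0442% in depleted SPAAC and 0.0389 ± 0.00876% in depleted CuAAC (SD, n = 3). Mock CuAAC was lower than mRNA-seq by a log2 difference of -2.36 and lower than mock SPAAC, which was 2.05 above it. Depleted CuAAC was -1.38 against mRNA-seq and 0.98 against mock CuAAC. These 4 pairs did not overlap (exact permutation p = 0.1, adjusted p = 0.218). The remaining pairs did, among them mock SPAAC against mRNA-seq at -0.31 (exact permutation p = 0.4). Over both RNAs the ratio was lower in CuAAC by a log2 difference of -1.26, with 3 of 6 libraries below all SPAAC libraries of the same RNA, and it ran from -1.50 to -0.99 with a library left out.

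**Figure D3:**
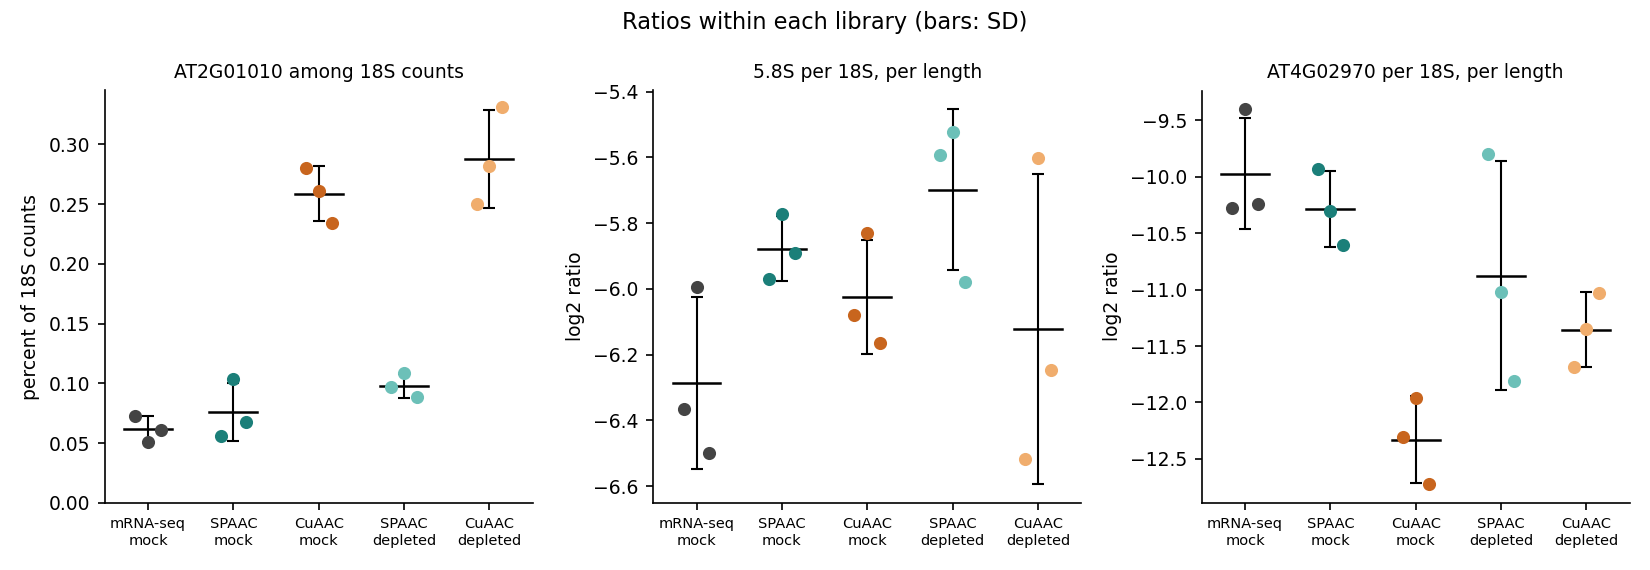
Ratios computed within each library: the percent of 18S counts on AT2G01010, the log2 ratio of 5.8S to 18S per length and the log2 ratio of AT4G02970 to 18S per length; points are libraries, lines and bars are mean and SD (n = 3). The AT2G01010 share is 0.235 to 0.331% in the 6 CuAAC libraries and 0.0508 to 0.108% in the other 9, and AT4G02970 per 18S is lowest in mock CuAAC.

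The region of AT4G02970 exon 2 has relatives elsewhere in the genome, which were looked for because a 7SL RNA can be encoded at several places. A BLASTN search used the 371 bases chr4:1318880-1319250, which hold 111 of the 813 exon bases of AT4G02970 (13.7%). It found 8 further stretches, 5 of them with the element TCCCACATCG at the end that matches its place at AT4G02970. The closest lies in AT4G04565 (90.6% identity over 371 bases), a non-coding gene. A stretch with 72.3% identity over 321 bases lies in the cytokinin response regulator gene RR3 (AT2G41310) and in AT2G09250, a long non-coding gene at chr2:17224503-17224801 on the opposite strand of RR3. A stretch with 81.0% identity over 310 bases covers 99.7% of the exon of the non-coding gene AT1G15405 (chr1:5297875-5298166, minus strand), which lies within AT1G05163. Both are printed because they are the relatives whose levels are described next. Capitals mark the element at the RR3 locus, of which only the first 30 bases, chr2:17224445-17224474 on the plus strand, are shown; AT1G15405 has no capitals.
RR3 and AT2G09250 locus: TCCCACATCGgaaaaacaaaacgttttgtt
AT1G15405: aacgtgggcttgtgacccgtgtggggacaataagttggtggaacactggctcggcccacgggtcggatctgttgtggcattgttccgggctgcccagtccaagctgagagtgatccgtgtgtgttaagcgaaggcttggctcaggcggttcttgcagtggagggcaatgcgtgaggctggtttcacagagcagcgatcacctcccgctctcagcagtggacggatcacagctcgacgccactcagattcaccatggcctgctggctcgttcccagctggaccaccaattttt

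These relatives were named after the search and after their values were seen. Of 9 genes in the count tables with exons in these stretches, 6 passed the filter on low counts. All 6, which lie at 4 loci, were called lower than mRNA-seq in each of the 4 comparisons, where 5.17, 11.2, 13.8 and 12.6% of all genes were. AT2G09250 overlaps RR3 and AT1G15405 overlaps AT1G05163, so the 6 are not separate results. AT2G09250 had 448 ± 58.6 CPM in mRNA-seq, but 0.863 ± 0.147 CPM in mock SPAAC, 5.05 ± 1.31 CPM in mock CuAAC, 4.25 ± 1.41 CPM in depleted SPAAC and 38.7 ± 5.06 CPM in depleted CuAAC. Its counts equalled 99.0 ± 0.0656% of those of RR3 in mRNA-seq, 22.8 ± 3.47% in mock SPAAC, 73.2 ± 13.9% in mock CuAAC, 51.9 ± 9.16% in depleted SPAAC and 92.8 ± 0.349% in depleted CuAAC. Reads of the strands are not separated there, so values of RR3 compare different mixtures of reads inside and outside AT2G09250. Counts of AT1G15405 likewise equalled 99.6 ± 0.664% of those of AT1G05163 in mRNA-seq and means of 51.1, 54.5, 47.5 and 87.2% in the captured groups in that order. AT1G15405 went from 13.9 ± 0.664 CPM to 0.168 ± 0.172, 0.357 ± 0.0794, 0.348 ± 0.340 and 3.06 ± 0.532 CPM. Both genes had their lowest mean in mock SPAAC, whereas AT4G02970 had it in mock CuAAC. For AT1G15405 that mean rests on 2, 1 and 7 counts, and its libraries overlap those of mock CuAAC and depleted SPAAC. That of AT4G02970 rests on 8, 10 and 4 counts, and its difference between the mock captures was not called. These means therefore do not show that AT1G15405 and AT4G02970 differ in their order of groups.

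Against mRNA-seq, AT2G09250 had log2 fold changes of -9.00 ± 0.26 in mock SPAAC, -6.47 ± 0.22 in mock CuAAC, -6.71 ± 0.22 in depleted SPAAC and -3.54 ± 0.18 in depleted CuAAC. AT1G15405 had -6.36 ± 0.46, -5.29 ± 0.43, -5.27 ± 0.42 and -2.18 ± 0.35 in the same order. RR3 had -6.89, -6.03, -5.81 and -3.44, and AT1G05163 -5.48, -4.37, -4.08 and -1.998. The protein-coding genes AT2G31141 and BXL3 were lower as well: AT2G31141 had -2.22, -2.07, -2.02 and -1.50, and BXL3 (AT5G09730), a beta-xylosidase gene, -3.44, -3.17, -2.88 and -2.01. The last call for AT2G31141 did not hold with library totals (-0.88). The related stretches cover 42.8% of the exon bases of AT2G31141 and 11.9% of those of BXL3. Counts of both genes thus also mix reads inside and outside the stretches, from either strand. SPAAC lay below CuAAC for AT2G09250, by -2.53 ± 0.29 in mock and -3.18 ± 0.21 in m7G-depleted RNA, both called. RR3 was the only gene of 21456 called in the difference between the depletion effects (-1.50 ± 0.23, edgeR adjusted p = 0.0356), and that call was lost in 11 of 19 alternatives, at values from -1.63 to -1.36; it carries the mixture of reads given above. AT4G04565 had 6, 10 and 13 counts in mRNA-seq and was not tested.

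**Figure D4:**
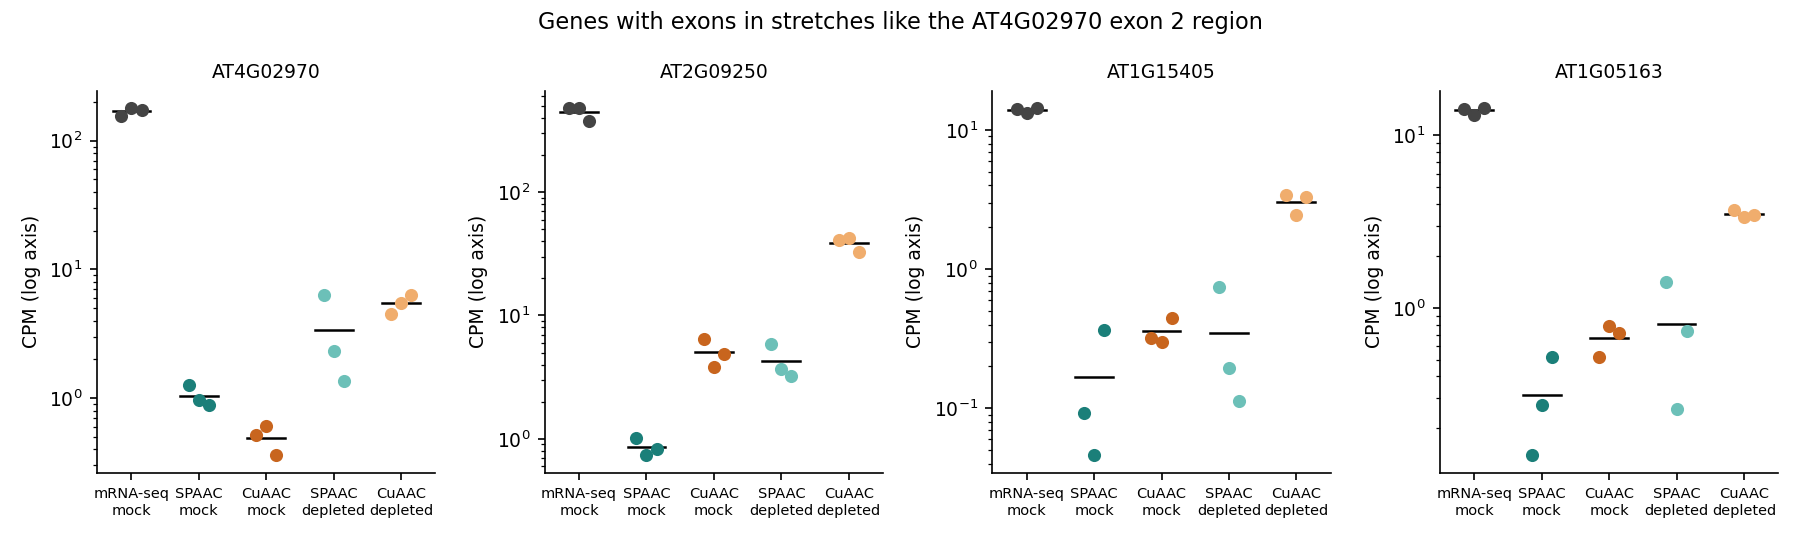
TMM-scaled CPM (log axis) of AT4G02970 and of 3 genes with exons in stretches like its exon 2 region; points are libraries, lines are means of 3. All 4 are highest in mRNA-seq, and in depleted CuAAC AT2G09250 stands at 38.7 ± 5.06 CPM and AT1G15405 at 3.06 ± 0.532 CPM.

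Among annotated genes within 10000 bases of an rRNA gene, those with a mean of at least 10 CPM were AT3G06355 and AT3G41762, both on chromosome 3. AT3G06355 (chr3:14199575-14200076) is a long non-coding gene that encloses the 5.8S gene AT3G41979. AT3G41979 counts equalled 54.7 ± 2.87% of those of AT3G06355 in mRNA-seq and means of 48.5, 48.1, 55.2 and 45.7% in mock SPAAC, mock CuAAC, depleted SPAAC and depleted CuAAC. AT3G06355 had log2 fold changes against mRNA-seq of -6.56 ± 0.26, -5.79 ± 0.25, -4.54 ± 0.23 and -3.29 ± 0.22 in that order. AT3G41762 (chr3:14195447-14196865), annotated as protein-coding and lying before the 18S gene, had -5.40 ± 0.27, -4.50 ± 0.26, -3.75 ± 0.24 and -2.29 ± 0.23. AT3G41762 was called in all 4 comparisons, but its mean of 13.8 CPM over the 15 libraries rests on 51.1 CPM in mRNA-seq. The captured groups had means of 1.21, 2.20, 3.83 and 10.5 CPM. A cut on the mean over all libraries favours genes that are high in mRNA-seq. Neighbours tested but below the cut had means of 8.29 CPM (AT3G41761), 5.01 CPM (AT2G01008) and 4.44 CPM (AT3G06325), and their changes are not given.

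The genes whose log2 CPM over the 15 libraries was most like that of a member, among 10915 genes with a mean of at least 10 CPM, were mostly from the organelles. For AT3G41768 they were ATMG01390 (Pearson r = 0.998), ATCG00280 (0.995) and ATCG00480 (0.995), and for AT2G01020 ATCG00180 (0.995), ATCG00270 (0.994) and ATCG00570 (0.994). For AT3G41979 they were AT3G06355 (0.999), which encloses it, ATCG00680 (0.997) and ATCG00350 (0.996). For AT2G01010 they were ATCG00920 (0.978), the carbonic anhydrase gene CA2 (0.977) and AGL26 (0.974), and for AT4G02970 ATCG00630 (0.986), ACR9 (0.984) and ATCG01110 (0.981). ATCG and ATMG identifiers are those of the chloroplast and the mitochondrion. These correlations describe libraries that share 5 group means, depth and scaling, and they carry no test.

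The proteins that work with these RNAs are encoded by messenger RNAs, and those called against mRNA-seq had log2 fold changes between -2.50 and 1.42. Among all genes tested, 5.17, 11.2, 13.8 and 12.6% were called lower and 1.9, 5.09, 10.9 and 5.39% higher in mock SPAAC, mock CuAAC, depleted SPAAC and depleted CuAAC. Of 11 genes for proteins of the signal recognition particle and its receptor, 2 were called against mRNA-seq in mock SPAAC and 2 in mock CuAAC, in both cases SRP19 and SRP9, which were lower. SRP19 (AT1G48160), which binds 7SL RNA, had -1.68 ± 0.14, -1.29 ± 0.14, -2.50 ± 0.15 and -1.90 ± 0.15 in the 4 comparisons. Its mean of 10.3 CPM over the 15 libraries, by which it is named, rests on 23.9 CPM in mRNA-seq. The captured groups had 7.42, 9.71, 4.20 and 6.37 CPM. In depleted SPAAC 3 of the 11 were lower and 1 higher, and in depleted CuAAC 3 were lower. The members besides SRP19 were named after their values were seen: SRP9 and SRP14, the pair that binds the Alu end of 7SL RNA in mammals, were lower at -1.91 ± 0.21 and -1.04 ± 0.19 in depleted SPAAC and at -1.59 ± 0.23 and -1.54 ± 0.21 in depleted CuAAC. SRP68 was higher in depleted SPAAC at 1.27 ± 0.11. The list's medians were 0.11, -0.22, 0.12 and -0.13, beside 0.07, 0.01, 0.06 and -0.02 for all genes tested. With library totals, which moved the median of all genes to 0.800, 0.622, 0.821 and 0.612, the list's medians were 0.85, 0.38, 0.89 and 0.51 and its counts 4 higher and 0 lower, 3 and 0, 5 and 2, and 2 and 1.

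Of 18 genes for rRNA synthesis and processing, 3 were called in mock SPAAC, all lower, and 7 in mock CuAAC, all lower. In depleted SPAAC 3 were higher and 5 lower, and in depleted CuAAC 2 and 2. Of all genes tested, 5.17, 11.2, 13.8 and 12.6% were called lower in these 4 comparisons and 1.9, 5.09, 10.9 and 5.39% higher. The medians of these 18 were -0.10, -0.75, 0.40 and -0.22. FIB1 (AT5G52470), a fibrillarin that methylates rRNA with box C/D snoRNAs, was lower in all 4 at -1.95 ± 0.11, -1.73 ± 0.11, -2.19 ± 0.11 and -1.71 ± 0.12. After depletion 4 of 18 were higher than in mock RNA in each capture, where 7.37% of all genes were in SPAAC and 6.32% in CuAAC, and NRPA2, XRN3 and MTR4 were among them in both, named after their values were seen. NRPA2, the second largest subunit of RNA polymerase I, had 1.41 ± 0.19 in SPAAC and 1.68 ± 0.20 in CuAAC, and XRN3, a nuclear exonuclease that removes spacer fragments of the precursor, 1.28 ± 0.09 and 1.24 ± 0.09. With library totals the 4 counts against mRNA-seq were 3 higher and 1 lower, 1 and 2, 11 and 1, and 4 and 1, under the same shift of all genes. Of the 2 RNA polymerase III genes tested, NRPC2 (AT5G45140) was higher in depleted SPAAC than in mRNA-seq (1.14 ± 0.17, lost in the test against a fold of 2), and NRPC1, named after its values were seen, was lower in mock CuAAC (-1.68 ± 0.38).

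Other classes of RNA without a messenger's m7G cap or poly(A) tail were called in both directions, and snoRNA genes more often lower than higher in each comparison. Of 287 annotated nuclear snoRNA genes 95 were tested, and against mRNA-seq 28, 34, 27 and 34 were lower and 3, 9, 8 and 2 higher in the 4 comparisons, where 5.17, 11.2, 13.8 and 12.6% of all genes were lower and 1.9, 5.09, 10.9 and 5.39% higher; the medians of the 95 were -0.18, -0.14, -0.29 and -0.59. Of 82 snRNA genes 14 were tested, and 1, 8, 1 and 3 were lower and 0, 3, 5 and 2 higher, with medians of 0.37, -1.17, 0.51 and -0.34. Of 625 nuclear tRNA genes only 5 passed the filter, with medians of 0.40, 0.06, -0.68 and -1.23. The members, at -8.35 to -1.44 in the same comparisons, lay below these medians. Medians do not show whether single genes of these classes were lowered as much. Counts of snoRNA genes that overlap other transcripts are uncertain, since strands were not separated.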

How the data were processed

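The authors deposited whole-number read counts with each gene's summed exon length for 15 libraries, per the file headers. STAR 2.7.3a, featureCounts 2.0.0 and DESeq2 (no version) appear in the submitters' processing notes without their steps; the build is not given in these sources. Of 37361 identifiers 37065 (99.2%) matched TAIR10.1, and 99.5% of 37051 genes had the same exon length there, so coordinates and sequences are from TAIR10.1 (RefSeq).

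Counts were fitted for all 15 libraries by group with edgeR 4.0.16 in R 4.3.3 (TMM, filterByExpr, robust quasi-likelihood F test), which left 21456 genes at a common biological coefficient of variation of 12.3%. The code was tested on simulated counts. Ratios within a library were tested by exact permutation, two-sided and without pairs of replicates (scipy 1.17.1). Sequences were compared with Biopython 1.88 and BLASTN 2.17.0 (E-value limit 1e-5, word size 7). Replicates of a group differed by more than sampling noise (chi-square per degree of freedom 3.83 to 15.7). Same-numbered libraries of different groups deviated together in 30 of 30 pairs (correlation 0.183 to 0.748, median 0.542, against -0.130 for other pairs, over 10920 genes), so the replicate numbers pair the samples; the fit here has no replicate block, which is an alternative.

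The members, gene lists and comparisons were chosen with earlier results of these data known. Named besides the 5 members are, for each, the 3 most correlated genes at a mean of at least 10 CPM, the called list member with the largest change in each comparison with mRNA-seq at that level, and rRNA neighbours within 10000 bases at that level; others are marked. Alternatives were library totals, scaling on nuclear protein-coding genes, no filter, compared groups only, the replicate block, glmTreat, DESeq2 1.42.0 and each library left out. Columns of other samples numbered 0. Without strand, counts of overlapping genes are uncertain.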

Additional observations from a re-analysis of the deposited data

How the results depend on the processing

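Of 615 values of the members under alternatives, 595 kept their direction and side of the threshold, 7 fell short of it, 11 passed it and 2 changed sign. With a replicate block the counts of called members were 5, 5, 5, 5, 2, 3, 5, 5 and 0 in the 9 comparisons, as without it, and the block changed no other call of a member. Of 21456 genes, the block called 1157, 2480, 3058 and 2826 lower and 501, 1202, 2406 and 1214 higher against mRNA-seq. For SPAAC against CuAAC 130 and 243 were lower and 1446 and 1654 higher, in mock and depleted RNA. After depletion 1618 and 1411 were higher and 2203 and 1920 lower, in SPAAC and CuAAC. In mock SPAAC against mock CuAAC 1 member was called under glmTreat and 1 to 3 with a library left out. Of all genes 6 and 105 to 177 were called lower there, and 385 and 1181 to 1439 higher. In depleted SPAAC against depleted CuAAC 2 members were called under glmTreat and 3 to 5 with a library left out. Of all genes 17 and 197 to 263 were called lower there, and 386 and 1506 to 1794 higher. In the difference between depletion effects 0 to 1 member was called with a library left out, and 0 to 2 of all genes. Without replicate 2 of depleted CuAAC that difference turned to 0.148 for AT2G01020 and 0.0688 for AT3G41979, and with a library left out it ran from -0.452 to 0.148 and from -0.405 to 0.0688. With a library left out, the log2 ratio of 5.8S to 18S ran from -0.0972 to 0.361 for depleted CuAAC against mRNA-seq and from -0.358 to 0.1002 against mock CuAAC, and AT4G02970 to 18S from -0.0622 to 0.943 for depleted SPAAC against CuAAC. The cause was not tested. With nuclear protein-coding counts as denominator the 5 genes equalled 44.1% in mRNA-seq and 3.66% in depleted CuAAC, in place of 26.3 and 3.35%. With library totals 6901 genes were called higher and 356 lower in mock SPAAC against mRNA-seq, in place of 407 and 1109; 5599 and 1012 in mock CuAAC, in place of 1093 and 2405; 8641 and 985 in depleted SPAAC, in place of 2340 and 2959; and 5723 and 1067 in depleted CuAAC, in place of 1157 and 2698. Counts of 4 to 112 for AT4G02970 and 12 to 93 for AT2G01020 limit the captured libraries.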
